A study of Mus musculus with 24 samples.

Results

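Elastic fibres are built from a small set of secreted proteins, and transcripts of 10 of their genes were followed across mouse embryonic fibroblasts treated in 8 ways. The 10 genes are Eln, Fbn1, Fbn2, Fbln1, Fbln2, Fbln5, Lox, Loxl1, Emilin1 and Mfap4, out of 47480 genes in the count table. They were taken by name, because Eln falls with the compound KL001. The KL001 values of these 10 genes are therefore a description, with no test. All 10 had enough reads to pass the filter on low counts, and the lowest mean level was 3.34 CPM, that of Mfap4. CPM is the number of counts scaled to a common library total.

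Messenger RNA was sequenced from 24 libraries, 3 for each group, and all cells carried the wild type genotype. Cells had received siCTRL, a control small interfering RNA, or siCop1, directed against the ubiquitin ligase subunit Cop1. Each was combined with the solvent DMSO or with KL001, a small molecule that stabilises the cryptochrome repressors of the circadian clock, and each of these was kept without or with "Dexa", as the labels write it. The 8 groups are thus siCTRL DMSO, siCTRL DMSO with Dexa, siCTRL KL001, siCTRL KL001 with Dexa, siCop1 DMSO, siCop1 DMSO with Dexa, siCop1 KL001 and siCop1 KL001 with Dexa. The labels state no dose, exposure time, siRNA sequence or passage number. Nothing says that replicates came from separate cultures, so p-values measure only the spread between these libraries, which may be technical. In bulk RNA, fewer cells of a type and less RNA per cell cannot be told apart.

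Elastin, the product of Eln, is secreted as the soluble monomer tropoelastin and laid down on a scaffold of microfibrils made of the fibrillins Fbn1 and Fbn2. Fibulins connect the parts: Fbln5 binds elastin and integrins and is needed for fibre assembly, while Fbln1 and Fbln2 are found in elastic fibres and basement membranes. Lox and Loxl1 are copper-dependent oxidases that cross-link elastin (Lox also cross-links collagen), Emilin1 sits at the border of elastin and microfibrils, and Mfap4 is a microfibril-associated protein that binds elastin. Fibroblasts and smooth muscle cells are the main makers of these proteins.

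The genes lie apart from each other in the genome (build GRCm38, GENCODE vM21). Eln is at chr5:134702593-134747323 on the minus strand, Fbn1 at chr2:125300594-125507993 (minus), Fbln1 at chr15:85205949-85286535 (plus), Fbln2 at chr6:91212455-91272540 (plus) and Fbln5 at chr12:101746565-101819055 (minus). Loxl1 is at chr9:58287738-58313186 (minus), Emilin1 at chr5:30913402-30921277 (plus) and Mfap4 at chr11:61485431-61488900 (plus). Exons of 5 of the 10 overlap a gene on the other strand, and no source used here says whether the counting used the strand. The overlap takes 20.1% of the exon bases of Fbn1 (with Gm9913, listed at 5 to 33 counts per library) and 4.63% of those of Mfap4 (with Mapk7, 1135 to 1637 counts). For Eln it is 3.30%, and for Fbn2 and Lox under 1%.

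Promoter windows from 250 bases before to 50 after the start were taken from RefSeq (GRCm38.p6) for the 5 genes that matched by symbol, Fbn1, Fbln1, Fbln2, Fbln5 and Emilin1, with 7 windows in all. Eln, Fbn2, Lox, Loxl1 and Mfap4 are missing there. Both strands were searched for TGANTCA (the AP-1 site, found in 7.81% of 32851 such windows), CCGGAAG (an ETS site, 8.86%), CACGTG (the E-box bound by clock activators, 7.15%) and AGAACA and TGTTCT 3 bases apart (a full glucocorticoid response element, 0.00913%). The only match was the E-box in both overlapping windows of Fbln1, 81 bases before the start used in the first and 140 before that of the second. Shown here are the 250 bases before the start of Fbln1 at chr15:85205699-85205948 (plus strand), which hold that match in capitals, and of Fbln5 at chr12:101819120-101819369 (minus strand), the gene whose siCop1 change had the smallest p of the 10, which held none of the 4.
Fbln1: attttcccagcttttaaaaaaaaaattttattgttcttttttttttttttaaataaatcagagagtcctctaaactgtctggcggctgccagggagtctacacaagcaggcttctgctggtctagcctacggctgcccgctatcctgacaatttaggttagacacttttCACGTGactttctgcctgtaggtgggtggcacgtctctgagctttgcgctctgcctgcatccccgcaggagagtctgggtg
Fbln5: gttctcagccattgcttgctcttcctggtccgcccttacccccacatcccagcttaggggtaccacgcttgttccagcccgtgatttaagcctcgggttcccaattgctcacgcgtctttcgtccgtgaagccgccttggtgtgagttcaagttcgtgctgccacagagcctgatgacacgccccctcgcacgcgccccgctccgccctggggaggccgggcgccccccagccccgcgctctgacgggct
A match describes these letters only, and the lack of one says nothing of a factor at these genes.

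The labels were checked once against known responders. Library totals ran from 21409988 to 27875023 counts. Cop1, listed under its older symbol Rfwd2, held 24.99 to 29.72 CPM in the 12 siCTRL libraries and 4.33 to 5.79 CPM in the 12 siCop1 libraries. The glucocorticoid target Fkbp5 was at 33.4 to 52.3 CPM without and 583.6 to 726.9 CPM with Dexa, and Cry1 was at 20.3 to 34.6 CPM in DMSO and 4.44 to 10.14 CPM in KL001. Per2, the other gene taken to check KL001, was at 11.59 to 42.24 CPM in DMSO and 5.06 to 24.62 CPM in KL001, ranges that overlap across settings. The fibroblast collagens Col1a1, Col1a2 and Col3a1 were among the markers with high levels (means of 18720, 14000 and 3754 CPM), whereas Dcn (2.73 CPM) and Lum (0.645 CPM) were low. In 6 of the 12 siCTRL libraries the summed level of 7 cardiac muscle genes was 13.6 to 67.2 CPM, against 0.717 to 1.60 CPM in the other 6 and 0.766 to 1.52 CPM in the siCop1 libraries. Among these 6 are the 3 control libraries (siCTRL DMSO, no Dexa), and the others are replicate 2 of each remaining siCTRL group.

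Per length of exon in the control, the cross-linking enzyme Lox was the most abundant of the 10, and Mfap4 and Eln were the least. In siCTRL DMSO without Dexa, Lox stood at 471 ± 15.7 CPM per kilobase (SD, n = 3), followed by Loxl1 at 211 ± 5.34 and Fbln2 at 180 ± 2.98 (both SD, n = 3). Emilin1 (112), Fbn1 (93.2) and Fbln5 (81.3) formed the middle of the order on the same scale, then Fbln1 (20.4) and Fbn2 (17.6). Mfap4 was at 3.25 ± 0.272 and Eln at 2.93 ± 0.296 CPM per kilobase (SD, n = 3). The libraries of Mfap4 and Eln overlapped, and no other neighbours in this order did.

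**Figure D1:**
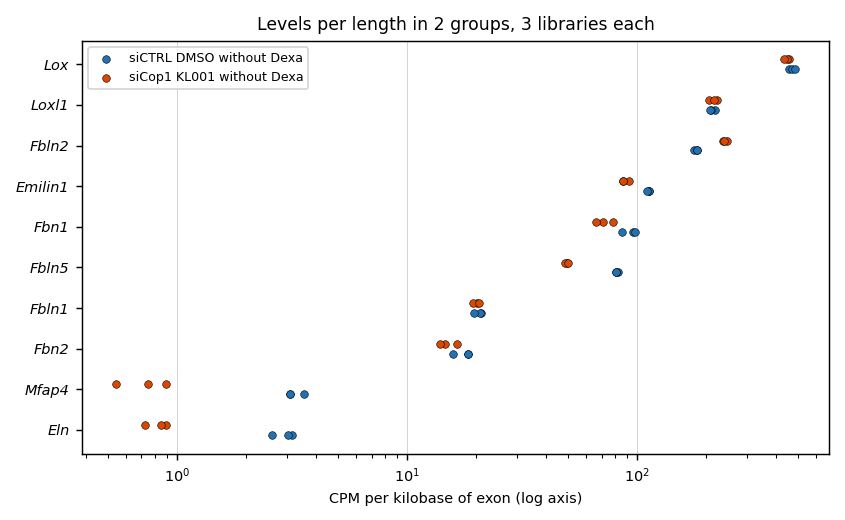
Level of each gene in CPM per kilobase of exon on a log axis, 1 point per library, for the 3 libraries of siCTRL DMSO without Dexa (blue) and the 3 of siCop1 KL001 without Dexa (orange). Lox is at the top near 471 and Mfap4 and Eln at the bottom near 3 in the control, and these 2 lie farthest to the left of their control values with siCop1 and KL001.

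Eln had its highest level in the control and its lowest where siCop1 and KL001 were combined. In siCTRL its 3 libraries held 25.5, 24.6 and 21.01 CPM in DMSO and 15.7, 16.6 and 15.97 CPM in KL001. With siCop1 they held 15.2, 14.5 and 16.04 CPM in DMSO and 7.25, 5.87 and 6.91 CPM in KL001. Either treatment alone thus left Eln at about the same level, with overlapping libraries, at 67.8% of the control mean for KL001 and 64.3% for siCop1, and both together left it at 28.1%, with no library above 7.25 CPM.

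With Dexa, siCTRL DMSO was again highest and siCop1 KL001 lowest. Eln was at 23.6, 20.1 and 18.1 CPM in siCTRL DMSO and 13.6, 11.7 and 10.8 CPM in siCTRL KL001. In siCop1 it was at 15.1, 14.96 and 14.8 CPM in DMSO and 6.21, 6.46 and 6.32 CPM in KL001. Over the 8 groups, siCTRL DMSO without and with Dexa were highest and overlapped. The next 3, siCTRL KL001, siCop1 DMSO and siCop1 DMSO with Dexa, each overlapped their neighbour, siCTRL KL001 with Dexa lay below them, and the 2 groups with siCop1 and KL001 were lowest and overlapped. These levels rest on 136 to 708 counts per library.

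**Figure D2:**
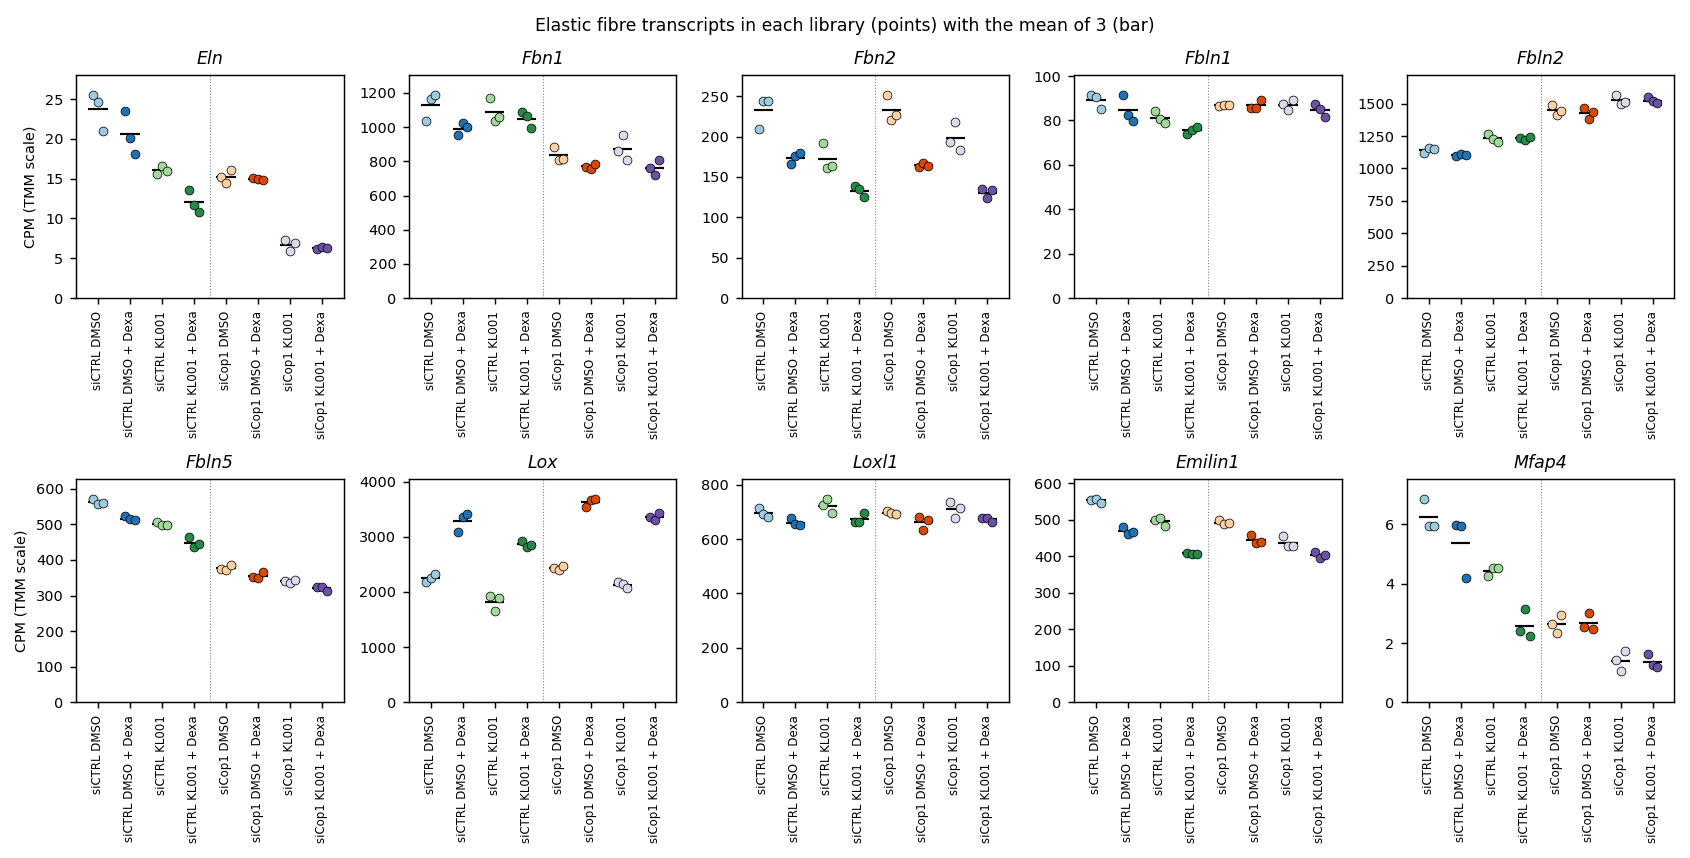
Level of each of the 10 genes in CPM (TMM scale), 1 panel per gene with its own axis from 0, 1 point per library and a bar at the mean of 3. Eln and Mfap4 step down from siCTRL to siCop1 and from DMSO to KL001, Fbln5 and Fbn1 are lower in all siCop1 groups, Fbln2 is higher in them, and Lox is higher in the 4 groups with Dexa.

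Treatment with siCop1 lowered Eln, Mfap4, Fbln5 and Fbn1 and raised Fbln2 in each of the 4 settings of compound and Dexa. Lox rose in each as well, by less, and its calls in DMSO depended on single libraries. With siCop1, 7 of the 10 genes changed in DMSO without Dexa (adjusted p below 0.05), of which 2 rose and 5 fell, where 29.4% of all 14772 genes tested changed (12.8% rose, 16.6% fell). In DMSO with Dexa it was 7 genes, 2 higher and 5 lower, against 31.1% of all genes (14.4% and 16.7%). In KL001 without Dexa 8 changed, 3 higher and 5 lower, against 32.7% (14.5% and 18.2%), and with Dexa 7, 3 higher and 4 lower, against 30.1% (13.7% and 16.3%). The libraries of the 2 groups did not overlap for 7, 7, 8 and 7 of the 10 genes, and for 42.7%, 43.5%, 39.5% and 45.3% of all genes. The median log2 change of the 10 was -0.10, -0.08, -0.10 and -0.02 in that order, against -0.01, 0.00, -0.01 and 0.00 over all genes. Genes that changed in the same direction in all 4 settings made up 9.55% of all genes for those that fell and 6.75% for those that rose. The siCop1 and Dexa comparisons share libraries with the KL001 comparisons on which Eln was chosen, among them the siCTRL DMSO libraries without Dexa.

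Eln, the elastic core itself, fell with siCop1 by 0.64 on the log2 scale in DMSO without Dexa (SE 0.083, adjusted p 5.59e-07). Adjusted p-values here and below come from the quasi-likelihood test of edgeR, adjusted by Benjamini-Hochberg over all genes tested. With Dexa its change in DMSO was -0.46 (SE 0.085, adjusted p 9.14e-05). In KL001 its log2 change was -1.27 (SE 0.1002, adjusted p 5.1e-11) without and -0.93 (SE 0.109, adjusted p 1.13e-07) with Dexa. No library of a siCop1 group reached the lowest of its siCTRL group in any setting. Without single libraries the 4 changes stayed between -0.36 and -1.33 and all remained past the threshold.

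Mfap4, the microfibril-associated partner of elastin, had the largest siCop1 change of the 10 on the log2 scale in 3 settings, and in KL001 with Dexa that of Eln was as large. Its siCTRL libraries held 6.85, 5.94 and 5.96 CPM in DMSO, and 4.27, 4.52 and 4.53 CPM in KL001. Its siCop1 libraries held 2.65, 2.33 and 2.94 CPM in DMSO, and 1.44, 1.04 and 1.72 CPM in KL001. The log2 changes were -1.25 (SE 0.152, adjusted p 1.66e-07) and -1.66 (SE 0.175, adjusted p 9.85e-09), with no overlap. With Dexa the 3 libraries were at 5.99, 5.97 and 4.19 CPM in siCTRL DMSO and at 2.55, 3.01 and 2.47 CPM in siCop1 DMSO. In KL001 with Dexa they were at 2.39, 3.16 and 2.22 CPM for siCTRL and 1.64, 1.28 and 1.21 CPM for siCop1. These changes of -1.01 (SE 0.155, adjusted p 7.58e-06) and -0.91 (SE 0.194, adjusted p 0.000543) also came from groups that did not overlap. Mfap4 rests on few reads, 26 to 190 counts per library.

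Fbln5, which brings elastin to the microfibril, fell by nearly the same amount in every setting. It held 571, 556 and 559 CPM in siCTRL DMSO and 376, 371 and 387 CPM in siCop1 DMSO, a log2 change of -0.57 (SE 0.027, adjusted p 6.02e-16). The change was -0.54 (SE 0.027, adjusted p 2.5e-15) in DMSO with Dexa, -0.55 (SE 0.027, adjusted p 1.38e-15) in KL001 and -0.49 (SE 0.028, adjusted p 2.38e-14) in KL001 with Dexa. The 12 siCTRL libraries held at least 436.8 CPM and the 12 siCop1 libraries at most 386.8 CPM, so these did not overlap even across settings.

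Of the fibrillins, Fbn1 fell with siCop1 in all 4 settings and Fbn2 in none. Fbn1, the main fibrillin of mature microfibrils, was at 1038, 1162 and 1189 CPM in siCTRL DMSO and at 884, 808 and 814 CPM in siCop1 DMSO. The groups did not overlap in any setting, and the log2 changes were -0.44, -0.36, -0.32 and -0.46 (SE 0.064 to 0.065, adjusted p 1.38e-05 to 0.000705). Fbn2, the fibrillin of developing tissue, held 209 to 244 CPM in siCTRL DMSO and 220 to 252 CPM in siCop1 DMSO, with a log2 change of 0.00 (95% interval -0.15 to 0.16). Its one call, 0.20 (SE 0.076, adjusted p 0.0491) in KL001 without Dexa, came from groups that overlapped. That call was lost, with adjusted p-values of 0.0712 to 0.26, without replicate 1 or 2 of siCop1 KL001 or replicate 2 or 3 of siCTRL KL001. It was also lost with the replicate number as a block (0.0623) and in a fit on only the groups compared (0.0635).

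Fbln2, a fibulin of the fibre surface, rose with siCop1. Its libraries held 1122, 1156 and 1154 CPM in siCTRL DMSO against 1493, 1412 and 1446 CPM in siCop1 DMSO, a log2 change of 0.34 (SE 0.027, adjusted p 2.4e-11). The other 3 settings gave 0.37, 0.31 and 0.31, with adjusted p-values up to 2.51e-10 and no overlap. Fbln1 changed in KL001 with Dexa only, by 0.17 (SE 0.043, adjusted p 0.00333). Without Dexa its change in KL001 was 0.10 (adjusted p 0.0554), and it passed without replicate 1 of siCTRL KL001 (0.0287), with RLE scaling (0.0346) and in DESeq2 (0.0422). With the trend against exon length and GC content removed, Fbln1 also passed there (0.17, adjusted p 0.000277) and in DMSO with Dexa (0.09, adjusted p 0.0441). Over all 24 libraries Fbln1 lay between 73.9 and 91.5 CPM. Of the 3 fibulins, Fbln5 thus fell and Fbln2 rose in all 4 settings, and Fbln1 rose in 1, or in 3 with that trend removed.

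Of the cross-linking enzymes, Lox rose slightly with siCop1 and Loxl1 did not pass in any setting. Lox was at 2179, 2247 and 2328 CPM in siCTRL DMSO and at 2428, 2395 and 2479 CPM in siCop1 DMSO. Its log2 change was 0.11 (SE 0.042, adjusted p 0.0462), and the adjusted p was 0.0618 to 0.181 without any 1 of the 3 siCop1 libraries or replicate 1 or 2 of the siCTRL libraries. In DMSO with Dexa it was 0.15 (adjusted p 0.00961), lost without replicate 1 of siCTRL (0.102), and in KL001 0.22 (adjusted p 0.000201) without and 0.23 (adjusted p 0.000126) with Dexa. Loxl1 lay between 634.5 and 746.6 CPM in the 24 libraries. Its siCop1 change was between -0.03 and 0.01 on the log2 scale, and the widest bounds of its 95% intervals were -0.09 and 0.07. With the trend against exon length and GC content removed, it was 0.07 to 0.08 and passed in 3 settings (adjusted p 0.0082, 0.01 and 0.0199), reversed in sign for DMSO without Dexa and KL001 with Dexa.

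Emilin1 fell with siCop1 in 3 settings, by small amounts. Its libraries held 555, 556 and 547 CPM in siCTRL DMSO and 499, 488 and 490 CPM in siCop1 DMSO, a log2 change of -0.17 (SE 0.028, adjusted p 2.79e-05). In KL001 without Dexa it was -0.18 (adjusted p 8.13e-06). In DMSO with Dexa the change of -0.08 (adjusted p 0.0307) was lost without replicate 2 or 3 of siCop1 or replicate 1 of siCTRL, with adjusted p-values of 0.0729 to 0.126, without the filter on low counts (0.0927), in a fit on only the groups compared (0.0833) and with the length and GC trend removed (0.597). In KL001 with Dexa the groups overlapped, at 407 to 408 CPM for siCTRL and 395 to 411 CPM for siCop1.

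Transcripts of smooth muscle, another maker of elastic fibres, moved with siCop1 as well. Of 7 smooth muscle genes, 7, 6, 6 and 5 fell in the 4 settings in the order above and none rose, where 16.6%, 16.7%, 18.2% and 16.3% of all genes fell, and their median log2 changes were -0.72, -0.70, -0.83 and -0.71. Their summed level was 3689 to 4318 CPM in siCTRL libraries and 2329 to 2729 CPM in siCop1 libraries, most of it Acta2, which activated fibroblasts also express. Of the defining genes, Myh11 had a mean of 0.448 CPM and Des of 1.49 CPM. The 9 fibroblast markers summed to 39920 to 50770 CPM in siCTRL and 35020 to 43670 CPM in siCop1 libraries, lower in siCop1 in each setting with no overlap. Most of this sum is Col1a1 and Col1a2. Of the 9 markers, 2, 2, 5 and 2 fell in the 4 settings, against the shares of all genes just given. In the same order 0, 0, 2 and 2 rose, where 12.8%, 14.4%, 14.5% and 13.7% of all genes rose. The part of these transcripts in the siCop1 results was not tested. Of the siCop1 calls above, only that of Fbn2 was lost (adjusted p 0.211) without the 3 libraries high in cardiac genes that could be left out. For siCTRL DMSO without Dexa, where all 3 libraries hold them, the part of these transcripts was not tested.

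**Figure D3:**
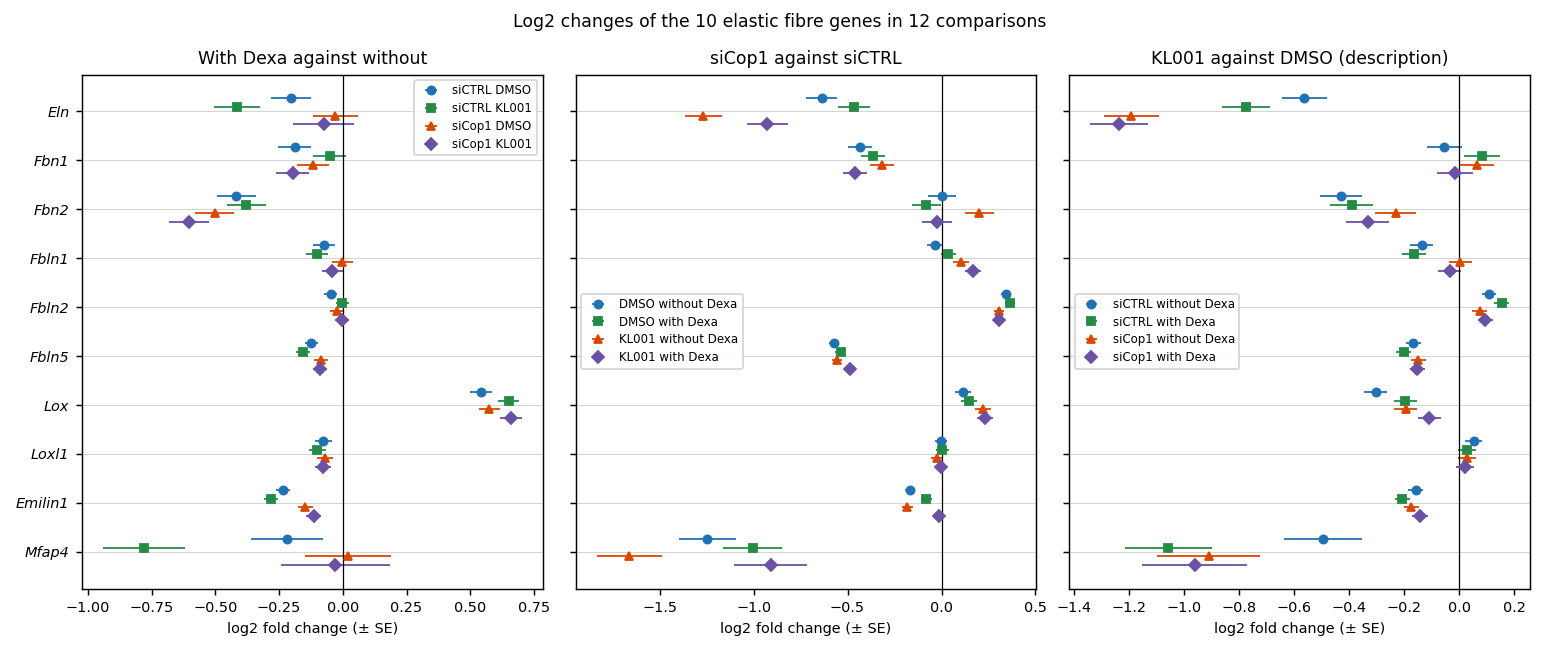
Log2 change of each gene (points, with bars of 1 SE) in the 4 settings of each of 3 comparisons, with Dexa against without, siCop1 against siCTRL and KL001 against DMSO, the last as a description. Lox lies right of 0 and Fbn2 left of it with Dexa, Mfap4 and Eln lie farthest left with KL001, Mfap4, Eln and Fbln5 lie left of 0 in all settings with siCop1, and Fbln2 lies right of 0 in both.

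Dexa raised Lox and lowered Fbn2 in all 4 settings. Emilin1 and Fbln5 fell in all 4 as well, by less, and in siCop1 calls of both depended on the processing. It changed 5 of the 10 genes in siCTRL DMSO, 1 higher and 4 lower, against 26.8% of all genes (12.7% higher, 14.1% lower). In siCTRL KL001 it changed 7, 1 higher and 6 lower, against 26.8% (12.7% and 14%). In siCop1 it changed 4 in DMSO, 1 higher and 3 lower, against 23.7% (12% and 11.6%), and 5 in KL001, 1 higher and 4 lower, against 24.5% (12.1% and 12.4%). The libraries of the 2 groups did not overlap for 7, 8, 6 and 5 of the 10 genes, and for 36%, 34.9%, 41.7% and 38.5% of all genes. The median log2 change of the 10 was -0.16, -0.13, -0.05 and -0.08 in this order, against -0.01, -0.01, 0.00 and 0.00 over all genes. Among all genes, 7.85% rose and 7.31% fell in all 4 settings.

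Lox was the only one of the 10 that rose with Dexa. Its libraries went from 2179, 2247 and 2328 CPM to 3082, 3350 and 3405 CPM in siCTRL DMSO and from 1925, 1656 and 1892 CPM to 2920, 2823 and 2850 CPM in siCTRL KL001. With siCop1 they went from 2428, 2395 and 2479 CPM to 3537, 3664 and 3681 CPM in DMSO and from 2174, 2145 and 2068 CPM to 3355, 3303 and 3436 CPM in KL001. Every library with Dexa lay above every library without it, across all settings. The log2 changes were 0.54, 0.65, 0.58 and 0.66 (SE 0.042, adjusted p 4.32e-12 to 1.57e-10), which are 1.46-fold to 1.58-fold increases.

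Fbn2 went the other way. Its libraries were at 209, 244 and 244 CPM without and 166, 176 and 179 CPM with Dexa in siCTRL DMSO. In siCop1 KL001, where its change was largest, they were at 194, 219 and 183 CPM without and 135, 124 and 133 CPM with Dexa. The groups did not overlap in any setting, and the log2 changes were -0.42, -0.38, -0.50 and -0.60 (SE 0.076 to 0.078, adjusted p 4.24e-06 to 0.000809).

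Emilin1 and Fbln5 fell with Dexa by less. Emilin1 went from 555, 556 and 547 CPM to 481, 462 and 467 CPM in siCTRL DMSO, a log2 change of -0.23 (SE 0.028, adjusted p 9.38e-08). In siCTRL KL001 it was -0.28 (adjusted p 2.78e-09), in siCop1 DMSO -0.15 (adjusted p 0.000163) and in siCop1 KL001 -0.12 (adjusted p 0.00249), with no overlap of groups, and the last was lost with the length and GC trend removed (0.173). Fbln5 changed by -0.12 (SE 0.027, adjusted p 0.000727) in siCTRL DMSO and -0.16 (adjusted p 3.55e-05) in siCTRL KL001. In siCop1 its changes of -0.09 in both DMSO and KL001 (adjusted p 0.019 and 0.014) depended on single libraries and settings. In siCop1 DMSO the adjusted p was 0.079 to 0.119 without replicate 1 or 2 with Dexa or replicate 3 without it, 0.0683 without the filter on low counts and 0.0546 with the length and GC trend removed. In siCop1 KL001 it was 0.0942 without replicate 3 with Dexa and 0.0599 without replicate 3 lacking it.

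Eln and Mfap4 fell with Dexa in siCTRL KL001. There Eln changed by -0.42 (SE 0.092, adjusted p 0.000758) and Mfap4 by -0.78 (SE 0.160, adjusted p 0.000317), both with no overlap. In siCTRL DMSO, Eln changed by -0.20 (adjusted p 0.0581) with overlapping libraries, and the adjusted p was 0.005 without replicate 1 with Dexa, 0.0131 without replicate 3 lacking it, 0.024 without the filter on low counts and 0.0366 with the replicate number as a block. Mfap4 changed by -0.22 there (adjusted p 0.283), also with overlapping libraries. In siCop1 their changes were -0.03 and -0.08 for Eln and 0.02 and -0.03 for Mfap4, with adjusted p-values of at least 0.73. The 95% intervals there reached -0.32 for Eln and -0.46 for Mfap4.

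The remaining genes passed with Dexa in few settings or none, and each of their calls was lost in some alternative runs. Fbn1 changed by -0.19 (adjusted p 0.0339) in siCTRL DMSO, and the adjusted p was 0.0532 to 0.192 without any 1 of the Dexa libraries or replicate 2 or 3 lacking Dexa, and 0.0725 without the libraries high in cardiac genes. In siCop1 KL001 it changed by -0.20 (adjusted p 0.0305) with overlapping libraries, and the adjusted p was 0.0582 to 0.179 without replicate 1 or 2 of either group and 0.157 in a fit on only the groups compared. In siCop1 DMSO its change of -0.12 (adjusted p 0.222) passed in a fit on only the groups compared (0.0062) and without the filter on low counts (0.00232). Loxl1 passed in siCTRL KL001 alone (-0.10, adjusted p 0.02), lost without replicate 1 or 2 with Dexa or replicate 2 lacking it (0.0845 to 0.148) and without the libraries high in cardiac genes (0.416). It was also lost in a fit on only the groups compared (0.128), without the filter (0.0505) and with the length and GC trend removed (0.184). Its changes in the other 3 settings were -0.07 to -0.08, all with groups that did not overlap. The change in siCop1 DMSO passed in a fit on only the groups compared (adjusted p 0.0218) and with the trend removed (0.0433), that in siCTRL DMSO with the trend removed (0.0479) and that in siCop1 KL001 without replicate 2 lacking Dexa (0.0222). Fbln1 and Fbln2 passed in none of the 4, with log2 changes between -0.10 and 0.00; for Fbln1 in siCTRL DMSO the adjusted p of 0.216 became 0.0273 without replicate 1 with Dexa.

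Whether the Dexa response differs with Cop1 was tested directly. In DMSO, 0 of the 10 genes passed this test in edgeR and 0 in DESeq2, 1 had an unadjusted p below 0.05 (all genes 7.6%), and 0.67% of all genes passed. In KL001, 3 had an unadjusted p below 0.05 (all genes 7.67%) and 1 passed (all genes 0.562%), Emilin1, whose fall with Dexa was smaller with siCop1 by 0.17 on the log2 scale (SE 0.040, adjusted p 0.049). That call was lost, with adjusted p-values of 0.062 to 0.187, in 10 of the 12 fits that left out 1 library, those without replicate 1 of siCop1 KL001 lacking Dexa and without replicate 3 of siCTRL KL001 lacking Dexa being the exceptions. The differences for Eln were 0.17 in DMSO and 0.34 in KL001 (adjusted p 0.833 and 0.582), and for Mfap4 0.24 and 0.75 (adjusted p 0.901 and 0.353). The 95% intervals of the differences in KL001, not adjusted for the number of genes, were wide, 0.03 to 0.65 for Eln and 0.21 to 1.30 for Mfap4.

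With KL001, Eln changed by -0.56 (SE 0.082) and -0.77 (SE 0.089) in siCTRL without and with Dexa, and by -1.19 (SE 0.101) and -1.24 (SE 0.105) in siCop1. The difference between siCop1 and siCTRL in the KL001 change of Eln was -0.63 (SE 0.131) without and -0.46 (SE 0.140) with Dexa. As Eln was chosen on this contrast, nothing is read from the counts with an adjusted p below 0.05. They were 8 of the 10 genes in siCTRL without Dexa, 1 higher and 7 lower, against 6.73% of all genes (3.22% higher, 3.51% lower), and 8 with Dexa, 1 higher and 7 lower, against 10.6% (4.98% and 5.58%). In siCop1 it was 5 without Dexa, all lower, against 4.09% (1.77% and 2.32%), and 6 with Dexa, 1 higher and 5 lower, against 5.46% (2.5% and 2.97%). For the difference between siCop1 and siCTRL in the KL001 change it was 0 of the 10, Eln included, both without and with Dexa. The first of these counts was 5 without replicate 1 of siCTRL DMSO.

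The KL001 values of the other 9 genes ranged from lower to slightly higher. Mfap4 changed by -0.50, -1.06, -0.91 and -0.96 in the order siCTRL without and with Dexa, then siCop1 without and with Dexa. Fbn2 (-0.43, -0.39, -0.23, -0.33), Lox (-0.30, -0.20, -0.19, -0.11), Fbln5 (-0.17, -0.20, -0.15, -0.15) and Emilin1 (-0.16, -0.21, -0.17, -0.14) were lower by less in each. Fbn1 and Loxl1 lay between -0.05 and 0.08, Fbln2 was higher by 0.07 to 0.15, and Fbln1 was at -0.13 and -0.16 in siCTRL and 0.00 and -0.03 in siCop1. The Fbln1 value in siCTRL with Dexa was -0.11 without replicate 1 of siCTRL DMSO with Dexa. Lox in siCTRL without Dexa was at -0.24 without replicate 2 of siCTRL KL001. Emilin1 in siCop1 without Dexa was at -0.20 without replicate 1 of siCop1 KL001. With the length and GC trend removed, values with Dexa in siCTRL were 0.10 for Loxl1, -0.15 for Emilin1 and -0.23 for Fbln5. In siCop1 with Dexa they were 0.09 for Loxl1 and -0.08 for Emilin1. In the same order 3, 3, 4 and 2 of the 7 smooth muscle genes fell with KL001, where 3.51%, 5.58%, 2.32% and 2.97% of all genes fell. Of the 9 fibroblast markers, 4, 5, 3 and 4 fell in that order, against the same shares, and none rose. In siCTRL without Dexa the fibroblast markers summed to 48050 to 50770 CPM in DMSO and 40880 to 44890 CPM in KL001, and the cardiac genes to 13.6 to 49.1 CPM in DMSO and 0.932 to 57.7 CPM in KL001. The part of these transcripts was not tested.

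The group profile of Eln was compared with that of 11608 genes by the root mean square difference of centred log2 CPM over the 8 group means. The 5 closest genes were Sfrp1 (0.210), Ptprv (0.213), Susd2 (0.223), Cacna2d3 (0.235) and Mfap4 (0.237), a secreted Wnt antagonist, a receptor-like phosphatase, a membrane protein, a calcium channel subunit and the microfibril gene described above. With RLE scaling the same 5 were named, and over the 24 single libraries 2 of them remained, Ptprv and Mfap4. Of the other genes of the set, Fbln5 ranked 120, Emilin1 532, Fbn1 613 and Fbn2 942, and the remaining ones from 4824 to 10778. Sfrp1, Susd2 and Cacna2d3 are low genes, with means of 2.43, 2.29 and 2.42 CPM in siCTRL DMSO and 0.667, 0.877 and 0.930 CPM in siCop1 KL001.

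**Figure D4:**
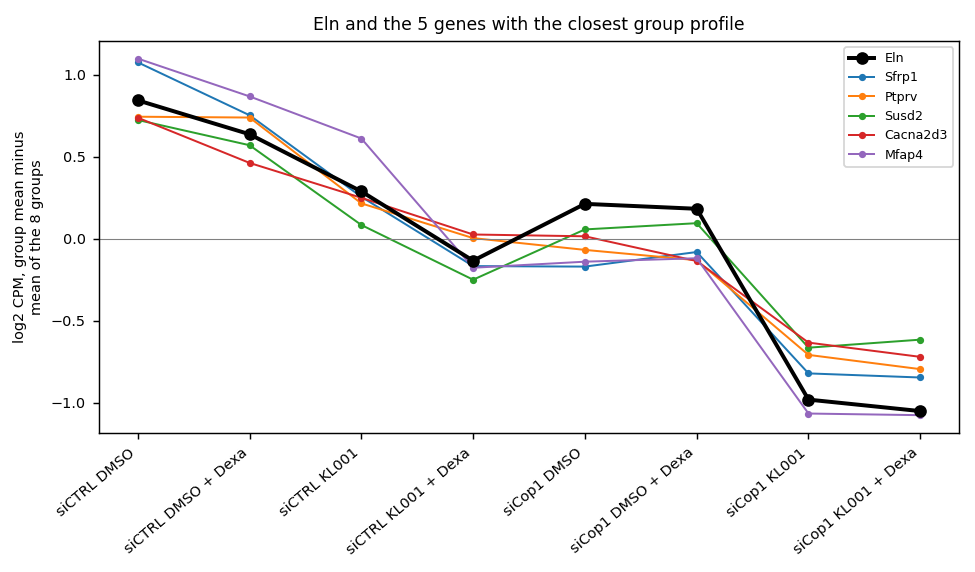
Mean log2 CPM of each of the 8 groups minus the mean of the 8, for Eln (black) and the 5 genes with the smallest root mean square difference from it. Eln runs from 0.85 in siCTRL DMSO to -1.05 in siCop1 KL001 with Dexa, and the lines of Mfap4 and Sfrp1 start above that of Eln.

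Other genes of the pathway were taken as a list of 44, chosen with earlier results of these data known, of which 40 passed the filter. It holds partners of the microfibril, enzymes of cross-linking and maturation, elastin-degrading enzymes and TGF-beta signalling, a pathway that induces elastic fibre genes and whose ligands are stored on microfibrils. Dexa changed 21 (9 higher, 12 lower), 25 (9, 16), 17 (9, 8) and 18 (8, 10) of the 40 in the 4 settings in the order used above. siCop1 changed 23 (9 higher, 14 lower), 25 (11, 14), 23 (9, 14) and 27 (13, 14). KL001 changed 13 (2 higher, 11 lower), 16 (2, 14), 13 (2, 11) and 13 (2, 11). Of all genes, Dexa changed 26.8%, 26.8%, 23.7% and 24.5%, siCop1 29.4%, 31.1%, 32.7% and 30.1%, and KL001 6.73%, 10.6%, 4.09% and 5.46%. The shares in each direction are those given above for each comparison.

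With Dexa, the genes of TGF-beta signalling moved mostly down. Of 14, 9, 9, 8 and 9 fell and 2 rose in the 4 settings. Of all genes, 14.1%, 14%, 11.6% and 12.4% fell and 12.7%, 12.7%, 12% and 12.1% rose. The median log2 changes of the 14 were -0.24, -0.24, -0.23 and -0.21 against -0.01 to 0.00 over all genes. Those that fell in all 4 were the ligands Tgfb1, Tgfb2 and Tgfb3, the signal transducers Smad2 and Smad3, and the inhibitor Smad7. The integrin subunits Itgb3 and Itgb8 fell in all 4 as well. Those that rose were the coreceptor Tgfbr3 and the integrin subunit Itgb5. Smad3 went from 139 to 78.0 CPM in siCTRL KL001 (log2 change -0.84, SE 0.040, adjusted p 1.89e-16), Itgb3 changed by -1.06 in siCop1 DMSO (adjusted p 1.29e-09) and Itgb8 by -0.87 in siCop1 KL001 (adjusted p 1.43e-09). The falls of Smad7 and Smad2 were small and partly rested on single libraries. For Smad7 the call in siCop1 DMSO (-0.22, adjusted p 0.0465) was lost without replicate 1 or 2 with Dexa or replicate 1 or 3 lacking it (0.111 to 0.234) and in DESeq2 (0.0567). Its call in siCTRL DMSO (-0.26, adjusted p 0.0149) was lost without replicate 1 or 3 with Dexa or replicate 1 lacking it (0.0526 to 0.0727), and that in siCop1 KL001 (-0.30, adjusted p 0.00662) without replicate 1 lacking Dexa (0.0935). For Smad2 the call in siCop1 KL001 (-0.12, adjusted p 0.0232) was lost without replicate 1 or 3 with Dexa or replicate 2 lacking it (0.0748 to 0.103).

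Among enzymes that act with Lox, Loxl3 and Tll1 rose with Dexa. Loxl3, another lysyl oxidase, rose in all 4 settings, from 99.5 to 211 CPM in siCop1 KL001 (log2 change 1.09, SE 0.033, adjusted p 3.96e-21). Tll1, a protease of the family that activates lysyl oxidase, rose from 10.6 to 26.8 CPM there (log2 change 1.34, SE 0.076, adjusted p 9.87e-15). The microfibril-binding proteoglycan gene Vcan rose from 240 to 511 CPM in siCTRL KL001 (log2 change 1.09, SE 0.086, adjusted p 8.78e-09). Furin, which cuts precursor proteins, also rose in all 4. In each setting 3 of the 8 tested genes of cross-linking and maturation rose with Dexa, where 12% to 12.7% of all genes rose. None of the 8 fell, where 11.6% to 14.1% of all genes fell.

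Among relatives of the 10 genes, Mfap2 and Efemp2 fell with siCop1 in all 4 settings, and Mfap5 and Efemp1 did not. Mfap2, a microfibril glycoprotein, went from 8.28 to 4.61 CPM in KL001 without Dexa (log2 change -0.84, SE 0.097, adjusted p 5.42e-08), and Mfap5 passed in none of the 12 comparisons. Efemp2, the fibulin needed with Lox for elastin cross-linking, fell by 0.26 to 0.32 on the log2 scale. Its sister Efemp1 changed by 0.50 in DMSO without and 0.49 in KL001 with Dexa, calls that were lost without replicate 1 of siCop1 DMSO (adjusted p 0.0618), and without replicate 1 of siCop1 KL001 with Dexa (0.0595) or replicate 2 of siCTRL KL001 with Dexa (0.081).

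The latent TGF-beta binding proteins share domain types with fibrillins, and 3 of their 4 genes fell in every setting with siCop1. Ltbp2, Ltbp3 and Ltbp4 fell with siCop1 in all 4 settings, by 0.12 to 0.35, 0.15 to 0.21 and 0.14 to 0.18 on the log2 scale. In KL001 without Dexa the calls of Ltbp2 and Ltbp4 were lost without replicate 1 of siCTRL KL001 (adjusted p 0.0547 and 0.0558). Ltbp1 fell with siCop1 in the 2 settings with Dexa, by 0.13 and 0.12. The second call was lost without replicate 2 of siCop1 KL001 with Dexa (adjusted p 0.0596). With Dexa against without, Ltbp3 was called lower in both siCTRL settings. Ltbp1 was called higher in all 4 settings, Ltbp4 in both DMSO settings and Ltbp2 in siCTRL KL001.

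The lysyl oxidases other than Lox and Loxl1 moved apart with siCop1. Loxl4 fell in all 4 settings, from 77.4 to 42.9 CPM in KL001 without Dexa (log2 change -0.85, SE 0.045, adjusted p 7.19e-15). Loxl2, near 1 CPM, fell in all 4, by 1.28 in DMSO with Dexa (SE 0.273, adjusted p 0.00055). Loxl3 rose in the 2 settings with Dexa, by 0.09 and 0.18, the first lost without replicate 1 or 3 of siCop1 DMSO with Dexa or replicate 2 or 3 of siCTRL DMSO with Dexa (adjusted p 0.084 to 0.141). Higher with siCop1 were the elastase gene Mmp9 (to 2.92 CPM in DMSO with Dexa, log2 change 1.55, adjusted p 1.03e-05), Itgb8 (from 17.9 to 43.7 CPM in KL001 without Dexa, adjusted p 1.99e-12) and Vcan (from 462 to 684 CPM in DMSO with Dexa, adjusted p 4.02e-05).

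With KL001, 2 genes of the list rose in all 4 settings, Emilin2, the relative of Emilin1 (0.34 in siCTRL without Dexa, adjusted p 7.81e-07), and Loxl4 (0.28 in siCTRL with Dexa, adjusted p 5.83e-05). For Emilin2 the call in siCop1 with Dexa was lost without replicate 1 or 3 of siCop1 DMSO with Dexa or replicate 1 of siCop1 KL001 with Dexa (adjusted p 0.0528 to 0.0957). Ltbp2 fell in all 4, from 158 to 112 CPM in siCTRL without Dexa (log2 change -0.50, SE 0.033, adjusted p 1.46e-11). Loxl3, unlike Loxl4, was called lower in all 4, and went from 120 to 101 CPM in siCTRL without Dexa. Mmp9 fell from 2.92 to 1.37 CPM in siCop1 with Dexa (adjusted p 0.00323). Fbln7, a short fibulin, changed by -0.57 there (adjusted p 0.0224), lost without replicate 1 or 2 of siCop1 DMSO with Dexa or replicate 2 or 3 of siCop1 KL001 with Dexa (0.0562 to 0.183).

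Mfap2 and Efemp2 were lower with KL001 in all 4 settings, by 0.32 to 0.48 and 0.13 to 0.19, as they were with siCop1. Several of these calls rested on single libraries. For Mfap2 they were lost in siCTRL without Dexa (adjusted p 0.0784, 0.0842 and 0.0981 without replicate 2 or 3 of DMSO or replicate 3 of KL001) and in siCop1 without Dexa (0.0932 and 0.081 without replicate 2 of DMSO or replicate 3 of KL001). For Efemp2 they were lost in siCTRL without Dexa (0.0502 and 0.076 without replicate 1 of DMSO or replicate 3 of KL001), in siCop1 without Dexa (0.0593 without replicate 2 of KL001) and in siCop1 with Dexa (0.0754, 0.0638 and 0.0504 without replicate 1 or 3 of DMSO or replicate 1 of KL001).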

How the data were processed

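Raw counts of reads, summed by gene symbol for each of the 24 libraries, were deposited by the authors. They also deposited a normalized table (unit: signal), whose values are the counts divided by 1 size factor per library (0.862 to 1.12), with 100% of values within a tolerance of 0.011. It was used only for that check, and 0 sample columns were left unused. Per the labels' protocols, RNA was column-purified and libraries were made with a stranded mRNA kit. The submitters' processing notes name bcl2fastq 1.8.4, STAR 2.4.5a, featureCounts, Subread 1.4.6-p3, DESeq2, Picard 1.126 and the builds GRCm38 and mm10, with no order or options.

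Genes were kept with filterByExpr (minimum count 10, minimum total 15), which left 14772. Counts from all 24 libraries were scaled with TMM and tested with edgeR 4.0.16 (quasi-likelihood, robust, 1 mean per group, R 4.3.3), two-sided, with Benjamini-Hochberg adjustment over all genes kept and a threshold of 0.05. The common biological coefficient of variation was 3.71%, and library totals had a median of 25337292 counts. CPM values are on the TMM scale. Standard errors come from the log2 fold change and its F statistic. The script was tested on simulated data.

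The 10 genes, the pathway and marker lists and the tests were chosen with earlier results of these data known. The 10 were named in every comparison. Of the pathway list, the close relatives of the 10 were named, with the 3 called genes of largest change in each direction per factor (mean of at least 1 CPM), and the TGF-beta genes that changed in all 4 Dexa settings and Furin were named after their values were seen. Marker lists for endothelium, squamous and airway epithelium, macrophages and cartilage summed to at most 61.6 CPM in any library. Alternatives were a fit limited to the groups compared, a block for the replicate number, RLE scaling, no filter, DESeq2 1.42.0 and leaving out each library. Chosen after seeing the data were offsets for the trend against exon length and GC content (96.6% of tested genes matched) and leaving out 3 siCTRL libraries high in cardiac genes. Same-numbered libraries correlated by -0.276 to 0.492, and every pair exceeded 0.1 in 2 of 12 comparisons, Dexa in siCTRL KL001 and KL001 in siCTRL with Dexa. The main tests used no pairing in any comparison, these 2 included. The block for the replicate number was fitted over all 24 libraries, as an alternative only.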

Additional observations from a re-analysis of the deposited data

Results flagged for a closer look

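In 4 tests the difference in the Dexa response between siCop1 and siCTRL passed the threshold (interaction term in edgeR, adjusted by Benjamini-Hochberg). In DMSO 0 of the 10 genes and 1 of the 40 other pathway genes passed, against 0.67% of all genes. In KL001 it was 1 of the 10 and 2 of the 40, against 0.562%. For Tll1, the protease gene, the log2 response was larger with siCop1 by 0.73 in DMSO (SE 0.102, adjusted p 0.000108), where it was 0.29 in siCTRL and 1.01 in siCop1. In KL001 the difference was 0.79 (SE 0.108, adjusted p 5.02e-05), from 0.55 in siCTRL and 1.34 in siCop1. Both passed in every alternative run. For Loxl3 the response in KL001 was 0.88 in siCTRL and 1.09 in siCop1, a difference of 0.21 (SE 0.047, adjusted p 0.0333). The Loxl3 call was lost in 9 of the 12 fits that left out 1 library (adjusted p 0.0536 to 0.173), with replicate 2 or 3 of siCTRL KL001 with Dexa, replicate 1 or 3 of siCTRL KL001, replicate 1 or 2 of siCop1 KL001 or any library of siCop1 KL001 with Dexa left out. It was also lost in a fit on only the groups compared (0.125) and without the filter on low counts (0.114). For Emilin1 the fall in KL001 was smaller with siCop1 by 0.17 (SE 0.040, adjusted p 0.049), a call that depended on single libraries and settings.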

How the results depend on the processing

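Of the 10 genes, the calls of Eln, Mfap4, Fbn1, Fbln5 and Fbln2 with siCop1 and of Lox and Fbn2 with Dexa held in every alternative run. The KL001 count in siCTRL without Dexa went from 8 to 4 in a fit on only the groups compared and was 5 to 7 without single libraries, and for the other pathway genes from 13 to 7 (10 to 14). In the same fit the genes called overall went from 994 to 225 there, from 604 to 950 in siCop1 without Dexa and from 807 to 1435 with Dexa. Without single libraries it was 653 in siCTRL without Dexa (replicate 3 of DMSO left out), 928 and 962 in place of 1560 in siCTRL with Dexa (replicate 1 of DMSO, replicate 3 of KL001), and 509 and 502 in place of 807 in siCop1 with Dexa (replicate 1 of DMSO, replicate 3 of KL001). The cause was not tested. For the siCop1 by Dexa difference in KL001 the count of 1 was 0 with RLE scaling, in a fit on only the groups compared and without the 3 libraries high in cardiac genes, and 0 to 1 without single libraries. Without the filter on low counts it was Fbn2 that passed in place of Emilin1 (adjusted p 0.00587 and 0.229). Removing the length and GC trend reversed Loxl1 with siCop1 to 0.0758 in DMSO without Dexa and 0.0673 in KL001 with Dexa. It also ended calls of Emilin1 (with Dexa in siCop1 KL001 and with siCop1 in DMSO with Dexa), Fbln5 (Dexa in siCop1 DMSO) and Loxl1 (Dexa in siCTRL KL001), and gave calls to Fbln1 (siCop1 in DMSO with Dexa and in KL001 without) and Loxl1 (siCop1 in 3 settings, Dexa in siCTRL DMSO and siCop1 DMSO), with the values given above. With the replicate number as a block, among the 10 genes Eln gained a call with Dexa in siCTRL DMSO (log2 change -0.20) and Fbn2 lost one with siCop1 in KL001 (0.20), and no other tested call of the 10 changed. Other pathway calls named above were lost in a fit on only the groups compared for Mfap2 and Efemp2 with KL001 in siCTRL without Dexa (adjusted p 0.101 and 0.228), Ltbp2 and Ltbp4 with siCop1 in KL001 without Dexa (0.0887 and 0.0521) and Smad2 with Dexa in siCTRL KL001 (0.0611). Without the filter they were lost for Ltbp2 (0.0542) in the same setting and for Loxl3 with siCop1 in DMSO with Dexa (0.122), in DESeq2 for Mfap2 (0.0644), and without the 3 libraries high in cardiac genes for Loxl3 (0.0806), for Efemp1 with siCop1 in KL001 with Dexa (0.0721) and for Smad7 with Dexa in siCTRL KL001 (0.101). The block also ended the call of Smad7 with Dexa in siCop1 DMSO (0.0551). Low counts limit the precision of Mfap4, and of Mmp9 and Loxl2 with means of at most 3.28 CPM in every group.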
